A study of Mus musculus with 3 samples.

Results

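Genes of the cell cycle and of DNA replication were followed in macrophages of 3 mouse organs, as 46 members chosen by symbol from the 24453 gene symbols measured. Each member was read from its longest coding RefSeq transcript, and all 46 were found. Macrophages came from C57BL/6 mice aged 8 weeks and in the steady state, from the heart (cardiac tissue macrophages), the liver (Kupffer cells) and the kidney (renal tissue macrophages), with 1 library for each organ. Cells were sorted for the surface proteins CD11b and F4/80 and against Ly6G and Ly6C, which mark neutrophils and inflammatory monocytes. RNA was amplified with a kit for low input before sequencing, and the number of animals behind each library is not given in the sources used here. Without replicates no difference could be set against variation between animals, and every value describes these 3 libraries only. In such sorted pools, fewer cells of a kind and less RNA in each cell cannot be told apart.

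Cell division runs through a fixed order of steps that are driven by cyclins and their kinases. D-type cyclins with CDK4 and CDK6 begin to inactivate the retinoblastoma protein RB, which frees E2F factors to switch on the genes of DNA replication. The MCM helicase is then loaded at origins (licensing), DNA is copied, and cyclin B with CDK1 carries the cell into mitosis. Resident tissue macrophages are mostly quiescent cells that can renew themselves by local division.

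Levels are given as RPKM, that is reads counted per kilobase of exon and scaled to 1000000 reads in the library, which allows genes of different length to be compared. Where 3 values follow each other, they are for cardiac macrophages, Kupffer cells and renal macrophages in this order. From the RPKM, 14461306 reads were recovered for cardiac macrophages, 16743613 for Kupffer cells and 15551092 for renal macrophages. Intervals of levels are exact 95% Poisson intervals of these reads and cover counting error only, since copies made by amplification cannot be told from separate molecules. All 8 pan-macrophage genes, with Adgre1 and Csf1r among them, stood at 1 RPKM or more in every library. Of the 46 members, 38 reached 1 RPKM in cardiac macrophages, 38 in Kupffer cells and 40 in renal macrophages, and 39 had reads in all 3. The highest level was in Kupffer cells for 24 members, in renal macrophages for 12 and in cardiac macrophages for 10. Such a split by highest library was not counted over all genes, here or by role, and describes the members only. In the plot of levels by gene, the members spread from 0 to 163 RPKM, with Cdkn1a in cardiac macrophages and Pcna in Kupffer cells at the upper end.

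**Figure D1:**
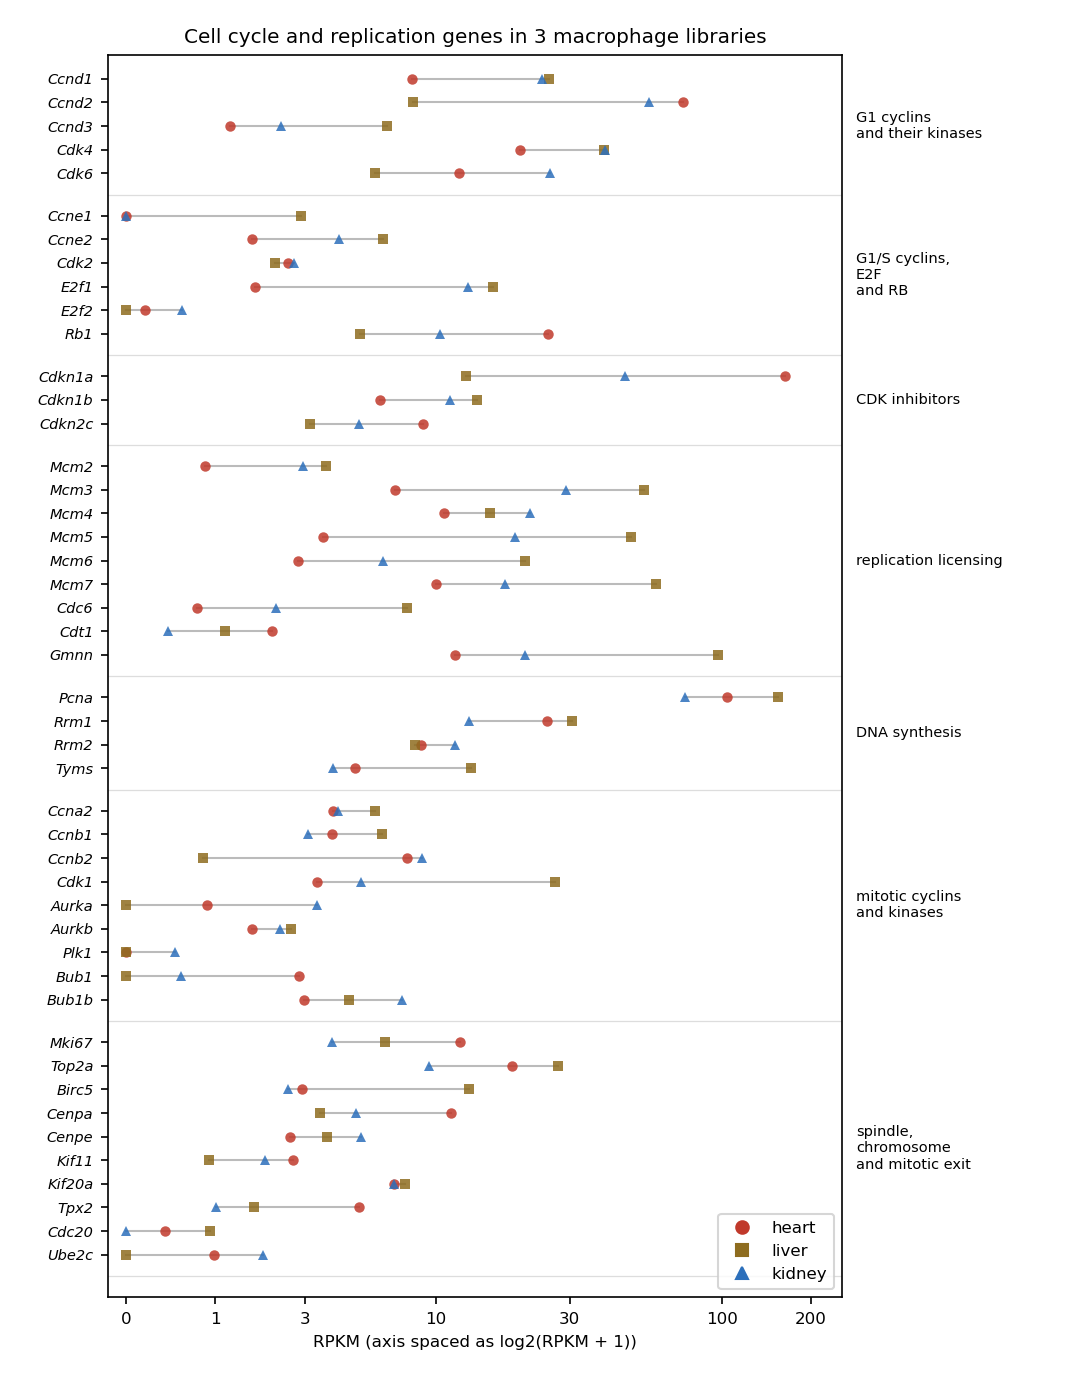
Level of each of the 46 members in heart (circles), liver (squares) and kidney (triangles), with RPKM on an axis spaced as log2(RPKM + 1) and genes ordered by role. The squares of Mcm3, Mcm5, Mcm6, Mcm7, Cdc6 and Gmnn lie to the right of the other marks, while Cdkn1a, Rb1 and Ccnd2 are highest in cardiac macrophages.

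Differences between libraries were taken on log2(RPKM + 1), and a gene was called higher or lower from 2 log2 units, which is 4-fold. A gene under 3 RPKM in both libraries cannot reach this mark. The filter on low values, 1 RPKM in at least 1 library, was passed by 43 members and by 11483 genes in all. Against Kupffer cells, 4 members were at least 4-fold higher in cardiac macrophages (Ccnb2, Ccnd2, Cdkn1a and Rb1), where 5.33% of all genes tested were. Another 8 were at least 4-fold higher in Kupffer cells (Cdc6, Cdk1, E2f1, Gmnn, Mcm3, Mcm5, Mcm6 and Mcm7), where 7.13% of all genes tested were. As a share of the members these counts came to 8.7% and 17.4%. In TPM, which raises low genes further above the added 1, the counts were 7 higher and 9 lower in cardiac macrophages (11.6% and 9.55% of all genes). With a pseudocount of 5 in place of 1 they were 2 and 4 (1.69% and 2.36% of all genes), namely Ccnd2 and Cdkn1a, and Gmnn, Mcm3, Mcm5 and Mcm7. Without the genes that share 5% or more of their exon bases with another gene, the 4 heart genes came down to Ccnb2 alone, because Ccnd2, Cdkn1a and Rb1 overlap others. Of the 35 members left, 1 was then higher and 7 were lower in cardiac macrophages (5.45% and 7.05% of all genes).

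Fewer members were 4-fold apart in the other comparisons. Between heart and kidney, 0 members were at least 4-fold higher in cardiac macrophages (2.39% of all genes tested) and 2, E2f1 and Mcm5, in renal macrophages (5.1%). With the pseudocount of 5, E2f1 and Mcm5 fell short of the mark there, at -1.43 and -1.50 log2 units. Between kidney and liver, 3 were higher in renal macrophages (Aurka, Ccnb2 and Ccnd2, against 7.57% of all genes) and 3 in Kupffer cells (Birc5, Cdk1 and Gmnn, against 5.1%). With the pseudocount of 5, Ccnd2 alone of these 6 passed the mark (1.77% of all genes higher and 1.64% lower). On the deposited RPKM with a pseudocount of 1, none of these 4-fold counts exceeded 6.52% of the members, near or under the shares of all genes. The median over the 46 members was -0.49 for cardiac minus Kupffer cells, -0.35 for cardiac minus renal cells and -0.26 for renal minus Kupffer cells, where the medians of the genes tested were -0.15, -0.23 and 0.04. Scaling by median ratios brought the medians of the genes tested to 0, 0 and 0.02, and those of the members to -0.26, -0.12 and -0.28. Under that scaling heart against kidney gave 1 member higher and 1 lower (3% and 3.63% of all genes), and in TPM 1 higher and 2 lower (5.17% and 9.76%), while kidney against liver gave 5 higher and 4 lower in TPM (15% and 7.03%).

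Against both other libraries at once, cardiac macrophages had 0 members at least 4-fold higher and 2 lower, E2f1 and Mcm5 (1.25% and 1.26% of all genes tested). Kupffer cells had 2 higher, Cdk1 and Gmnn, and 2 lower, Ccnb2 and Ccnd2 (3.24% and 2.58% of all genes), and renal macrophages had 0 in either direction (2.14% and 0.705%). At 2-fold, the pairwise counts were 8 higher and 16 lower for heart against liver (17.9% and 24.9% of all genes), 7 and 8 for heart against kidney (10.5% and 22.9%), and 6 and 13 for kidney against liver (24.2% and 17.7%). Kupffer cells then stood above both others for 10 members (12.2% of all genes), namely Birc5, Ccnd3, Ccne1, Cdc6, Cdk1, Gmnn, Mcm5, Mcm6, Mcm7 and Tyms, and below both for Ccnb2, Ccnd2 and Cdkn1a (10.7%). Cardiac macrophages stood below both others for 5 members, Ccnd1, E2f1, Mcm2, Mcm3 and Mcm5 (9.19%), and renal macrophages above both for 2, Aurka and Cdk6 (11.2%), and below both for 0 (3.46%).

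**Figure D2:**
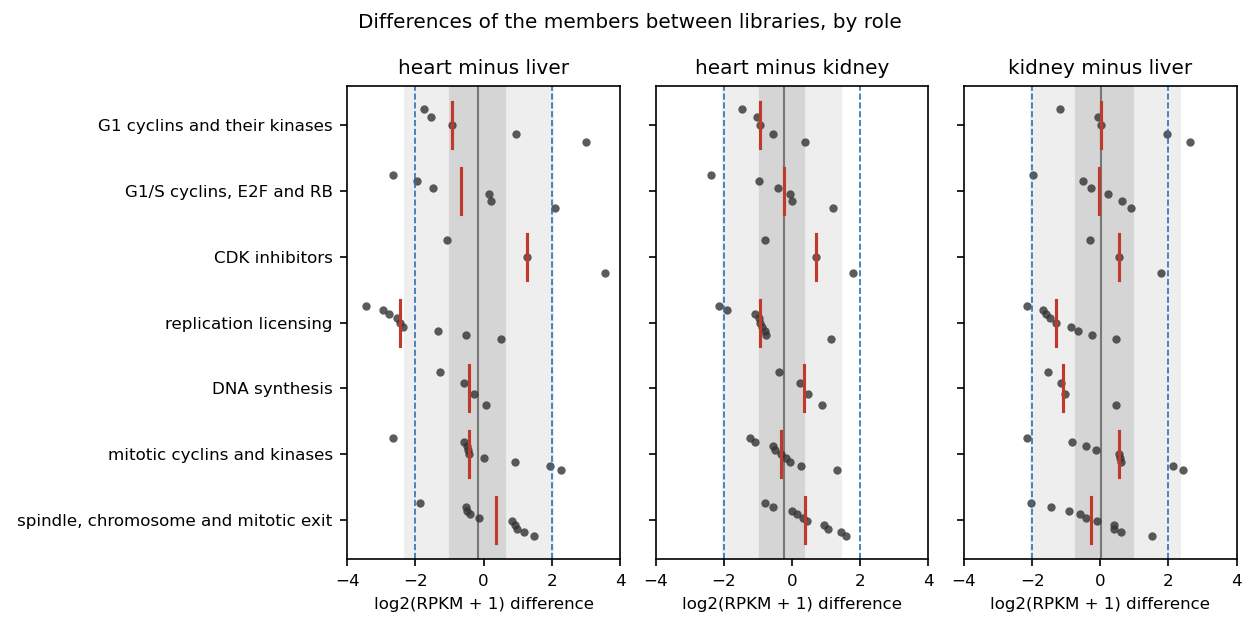
Difference of log2(RPKM + 1) for each member (points) by role, for the 3 pairs of libraries. Red bars are the median of a role, grey bands hold the middle 50% and 90% of all genes tested with their median as a line, and dashed lines mark 2 log2 units. Of the licensing genes 6 lie beyond -2 for cardiac minus Kupffer cells.

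D-type cyclins and their kinases act earliest. Ccnd2, which encodes cyclin D2 (chromosome 6, 127125709 to 127151048, mm10), stood at 73.4 RPKM in cardiac macrophages, 8.26 in Kupffer cells and 56.4 in renal macrophages. It was 8.89-fold higher in cardiac macrophages than in Kupffer cells (counting interval 8.25 to 9.58), and 6.83-fold higher in renal macrophages than in Kupffer cells (6.34 to 7.37). Ccnd1, which encodes cyclin D1, ran differently, at 8.14, 25.4 and 23.98 RPKM, and was 3.12-fold higher in Kupffer cells than in cardiac macrophages (2.81 to 3.48). Ccnd3, for cyclin D3, was the lowest of the family in all 3 libraries, at 1.25, 6.54 and 2.32 RPKM, and was 5.25-fold higher in Kupffer cells than in cardiac macrophages (3.71 to 7.61). The liver library thus held the least Ccnd2 and the most Ccnd3 of the libraries, with Ccnd1 at like levels in liver and kidney. Ccnd1 shares 23.4% of its exon bases with a gene on the opposite strand and Ccnd2 shares 7.86%, and the counting took reads of both strands.

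The summed level of the D-type cyclins was 82.8 RPKM in cardiac macrophages, 40.2 in Kupffer cells and 82.7 in renal macrophages. Ccnd2 made up 88.7%, 20.5% and 68.2% of these sums, and Ccnd1 9.83%, 63.2% and 29%. These shares do not depend on the scaling of a library. Cdk6, a kinase partner of the D-type cyclins, stood at 12.1, 5.86 and 25.6 RPKM in cardiac, Kupffer and renal cells, and was 4.36-fold higher in renal macrophages than in Kupffer cells (4.09 to 4.66). Cdk4, the other partner, stood at 20.1, 39.4 and 39.8 RPKM, was 1.96-fold higher in Kupffer cells than in cardiac macrophages (1.74 to 2.22) and shares 19.7% of its exon bases with an opposite gene. Cdk4 exceeded Cdk6 by 1.65-fold in cardiac macrophages, 6.72-fold in Kupffer cells and 1.56-fold in renal macrophages. Over the 5 genes of this role, the median difference was -0.94 for cardiac minus Kupffer, -0.95 for cardiac minus renal and 0.01 for renal minus Kupffer cells.

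**Figure D3:**
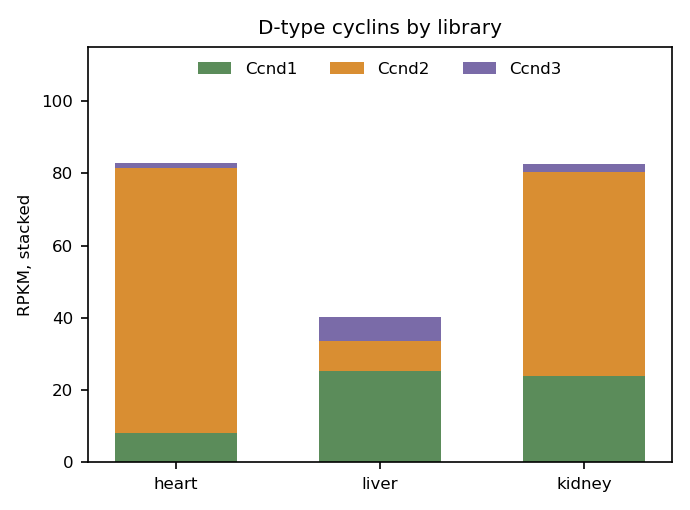
Levels of Ccnd1, Ccnd2 and Ccnd3 in RPKM, stacked from 0, in cardiac, Kupffer and renal cells. The stacks of heart and kidney reach 82.8 and 82.7 RPKM and are mostly Ccnd2, while that of Kupffer cells reaches 40.2 and is mostly Ccnd1.

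Of the genes around the step into S phase, E2f1 and Rb1 differed in opposite directions. E2f1, which encodes an activating E2F factor, stood at 1.72 RPKM in cardiac macrophages, 16.2 in Kupffer cells and 13.2 in renal macrophages. It was 9.39-fold higher in Kupffer cells (7.32 to 12.2) and 7.64-fold higher in renal macrophages (5.93 to 9.98) than in cardiac macrophages. Rb1, which encodes RB, stood at 25.3, 5.12 and 10.4 RPKM, with cardiac macrophages 4.93-fold above Kupffer cells (4.42 to 5.52) and 2.43-fold above renal macrophages (2.23 to 2.65). Rb1 has 14.9% of its exon bases in exons of another gene. Within cardiac macrophages Rb1 therefore stood above E2f1, and within Kupffer cells below it.

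Ccne1 and Ccne2 encode the E-type cyclins, the partners of CDK2. Ccne1 had 94 reads in Kupffer cells (2.89 RPKM) and 0 reads in both others, where 3 reads would be 0.107 RPKM in cardiac macrophages and 0.0993 in renal macrophages. It was at least 21.6-fold higher in Kupffer cells than in cardiac macrophages and at least 23.2-fold higher than in renal macrophages. Ccne2 stood at 1.65, 6.34 and 4.19 RPKM, with Kupffer cells 3.84-fold above cardiac macrophages (2.98 to 5.01), so that both E-type cyclins were highest in Kupffer cells. Ccne2 shares 17.4% of its exon bases with a gene on the opposite strand. Cdk2 was nearly level, at 2.51, 2.17 and 2.68 RPKM, and E2f2 did not pass the filter, with 11, 0 and 41 reads. The summed level of these 6 genes was 31.3, 32.7 and 31 RPKM, and which library was highest depended on the scaling. Their median differences, in the order just used, were -0.66, -0.24 and -0.03.

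CDK inhibitors hold the cyclin kinases back. Cdkn1a, which encodes p21, an inhibitor known as a target of p53 (chromosome 17, 29090979 to 29100722), stood at 163 RPKM in cardiac macrophages (interval 158 to 168, 4561 reads), 12.9 in Kupffer cells (420 reads) and 46.6 in renal macrophages (1403 reads). It was 12.6-fold higher in cardiac macrophages than in Kupffer cells (11.4 to 13.9) and 3.5-fold higher than in renal macrophages (3.29 to 3.71). Of the members with over 2 reads per base of exon, where the authors' limit on repeated reads may hold a value down, Cdkn1a was 1 of 2, with Pcna. Cdkn1b, which encodes p27, was lowest in cardiac macrophages, at 6.17 RPKM against 14.2 in Kupffer cells, which were 2.3-fold higher (1.96 to 2.7), and 11.3 in renal macrophages. Cdkn2c, which encodes p18 and binds CDK4 and CDK6, stood at 8.95, 3.14 and 5.06 RPKM, in the same order of libraries as Cdkn1a, with cardiac macrophages 2.85-fold above Kupffer cells (2.27 to 3.6). Cdkn1a exceeded Cdkn1b by 26.4-fold in cardiac macrophages and 4.12-fold in renal macrophages, and in Kupffer cells their ratio was 0.914. The 3 inhibitors had median differences of 1.26 for cardiac minus Kupffer, 0.71 for cardiac minus renal and 0.55 for renal minus Kupffer cells.

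A promoter of Cdkn1a is shown because Cdkn1a had the highest level of all members in cardiac macrophages. Another RefSeq promoter of Cdkn1a, with its window from position 29093519, is not shown, and which start the reads came from was not tested. Below are the 250 bases before the start of the transcript measured (chr17:29090729-29090978, plus strand, GRCm38.p6, RefSeq), with a spaced pair of CATG letters in capitals together with the 6 bases between them.
Cdkn1a: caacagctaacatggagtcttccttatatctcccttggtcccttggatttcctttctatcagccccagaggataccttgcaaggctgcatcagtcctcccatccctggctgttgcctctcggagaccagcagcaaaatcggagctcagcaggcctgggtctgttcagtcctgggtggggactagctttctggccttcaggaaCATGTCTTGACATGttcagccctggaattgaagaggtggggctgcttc
This form of the core of the p53 motif, CATG and CATG with 6 bases of any kind between, was searched after this sequence had been seen and reads the same on both strands. It occurred in the promoters of 0.57% of the 27025 genes with a RefSeq promoter, and among the 36 members with one in Cdkn1a only. A match describes letters and not binding.

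Of the 7 roles, replication licensing had the role median farthest from 0, in the comparison of cardiac macrophages with Kupffer cells. The helicase subunit Mcm5 (chromosome 8, 75109509 to 75128439) stood at 3.6 RPKM in cardiac macrophages (178 reads), 48.9 in Kupffer cells (2801 reads) and 19.4 in renal macrophages (1031 reads). It was 13.6-fold higher in Kupffer cells (11.7 to 15.9) and 5.39-fold higher in renal macrophages than in cardiac macrophages (4.59 to 6.35). Its partner subunit Mcm3 stood at 7.04, 54.1 and 29.1 RPKM, with Kupffer cells 7.68-fold above cardiac macrophages (6.81 to 8.7). Mcm6 stood at 2.79, 20.9 and 6.31 RPKM, 7.51-fold higher in Kupffer cells than in cardiac macrophages (6.42 to 8.82). Mcm7, with 12.6% of its exon bases in exons of another gene, stood at 10, 59.5 and 17.8 RPKM, with a fold of 5.95 between the same libraries (5.31 to 6.68). All 4 had the order liver, kidney, heart.

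Mcm2 and Mcm4, the remaining subunits, differed less. Mcm2 stood at 0.846, 3.69 and 2.93 RPKM and was 4.36-fold higher in Kupffer cells than in cardiac macrophages (3.11 to 6.25), while its difference on log2(RPKM + 1), -1.34, stayed short of the mark. Mcm4 was highest in renal macrophages, at 10.7, 15.7 and 21.8 RPKM. Although the subunits form a ring with equal numbers of each, their levels within a library differed by 12.6-fold in cardiac macrophages, 16.1-fold in Kupffer cells and 9.93-fold in renal macrophages, with Mcm2 lowest in all 3 libraries. Summed over the 6 subunits, the level was 34.96 RPKM in cardiac macrophages, 202.8 in Kupffer cells and 97.3 in renal macrophages.

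The loading factors and their inhibitor completed this group. Cdc6, which helps load the helicase, stood at 0.738, 7.84 and 2.18 RPKM in cardiac, Kupffer and renal cells, with Kupffer cells 10.6-fold above cardiac macrophages (7.94 to 14.5). Gmnn, which encodes geminin, the inhibitor of the loading factor CDT1, stood at 11.8, 96.9 and 20.9 RPKM, 8.22-fold higher in Kupffer cells than in cardiac macrophages (7 to 9.71) and 4.63-fold higher than in renal macrophages (4.1 to 5.24). Cdt1 was highest in cardiac macrophages, at 2.1 RPKM (66 reads), 1.15 (42 reads) and 0.384 (13 reads), 1.82-fold above Kupffer cells (1.22 to 2.75) and 5.46-fold above renal macrophages (2.98 to 10.8). Between liver and kidney it had the direction of Gmnn, with Kupffer cells 3-fold higher (1.58 to 6.09). The ratio of Gmnn to Cdt1 was 5.63, 84.2 and 54.5. Of these 9 genes 7 were highest in Kupffer cells, Mcm4 was highest in renal macrophages and Cdt1 in cardiac macrophages. The median difference of the 9 was -2.46 log2 units for cardiac minus Kupffer cells, -0.95 for cardiac minus renal cells and -1.29 for renal minus Kupffer cells.

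The promoter of Mcm5 is shown because Mcm5 differed more between heart and liver than any other licensing gene on log2(RPKM + 1). These are the 250 bases before its start (chr8:75109259-75109508, plus strand, GRCm38.p6, RefSeq), with E2F and CCAAT letters in capitals.
Mcm5: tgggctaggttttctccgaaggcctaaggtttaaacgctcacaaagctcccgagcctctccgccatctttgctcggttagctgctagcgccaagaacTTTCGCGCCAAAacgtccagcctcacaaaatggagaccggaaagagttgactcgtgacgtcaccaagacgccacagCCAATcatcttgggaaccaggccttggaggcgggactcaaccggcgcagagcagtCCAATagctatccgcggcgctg
The E2F motif was searched on both strands as TTTCCCGC, TTTCGCGC, TTTGCCGC or TTTGGCGC, and the long run of capitals holds TTTCGCGC and, overlapping it on the opposite strand, TTTGGCGC. E2F letters stood in the promoters of 4 of the 7 licensing genes with a RefSeq promoter (Mcm5, Mcm6, Mcm7 and Cdc6) and of 2.16% of all genes with one. Among the other members they stood in the promoters of Cdk1 and Cdk2. Absence of these letters from a window of this length says nothing about E2F binding.

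Genes that supply or clamp DNA synthesis differed less than the licensing genes. Pcna, the sliding clamp of the polymerases, stood at 104 RPKM in cardiac macrophages, 154.5 in Kupffer cells and 74.9 in renal macrophages, with Kupffer cells 2.06-fold above renal macrophages (1.94 to 2.2). Rrm1, the large subunit of ribonucleotide reductase, stood at 24.98, 30.7 and 13.2 RPKM, with a fold of 2.32 between these libraries (2.14 to 2.52). Rrm2, its small subunit, stood at 8.8, 8.4 and 11.8 RPKM. Tyms, which makes thymidylate, stood at 4.91, 13.4 and 3.97 RPKM and was 3.39-fold higher in Kupffer cells than in renal macrophages (2.93 to 3.93). None of these 4 genes was 4-fold apart between any pair of libraries. Of all genes tested, 2.39% to 7.57% were, by pair and direction, so a count of 0 among 4 genes is near those shares. Kidney values were the lowest for Pcna, Rrm1 and Tyms and the highest for Rrm2. The median differences of the 4 were -0.43, 0.36 and -1.1 in the order used for the inhibitors.

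**Figure D4:**
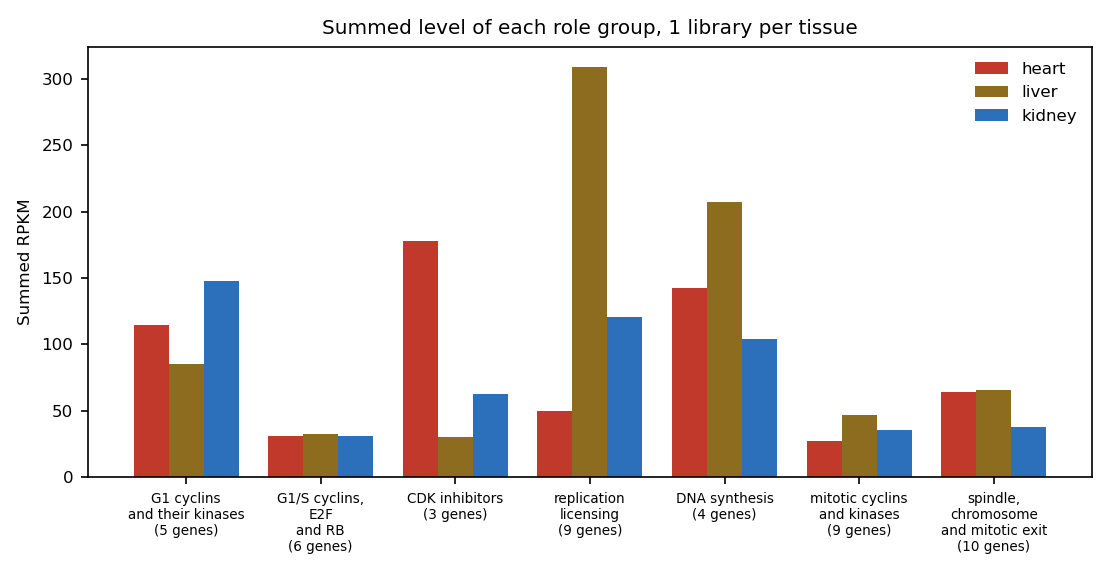
Summed RPKM of the members of each role in cardiac, Kupffer and renal cells, as bars from 0, with 1 library per tissue. The bars of replication licensing stand at 49.6, 309 and 121 RPKM and those of the CDK inhibitors at 178, 30.3 and 62.9.

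Mitotic cyclins and kinases did not share 1 order of libraries. Cdk1, the kinase that starts mitosis (chromosome 10, 69336635 to 69352912), stood at 3.4 RPKM in cardiac macrophages (140 reads), 26.7 in Kupffer cells (1272 reads) and 5.19 in renal macrophages (230 reads). It was 7.85-fold higher in Kupffer cells than in cardiac macrophages (6.59 to 9.41) and 5.14-fold higher than in renal macrophages (4.46 to 5.94). Ccnb2, which encodes the CDK1 partner cyclin B2, was lowest in Kupffer cells, at 7.82 RPKM (173 reads), 0.82 (21 reads) and 8.87 (211 reads). It was 9.54-fold higher in cardiac macrophages (6.05 to 15.8) and 10.8-fold higher in renal macrophages (6.9 to 17.8) than in Kupffer cells. Ccnb1, the other B-type cyclin, stood at 3.93, 6.27 and 3.1 RPKM, and Ccna2, which encodes cyclin A2, at 3.95, 5.86 and 4.18 RPKM. Of the exon bases of Ccna2, 12.5% lie in exons of another gene. The kinase Cdk1 and the cyclin Ccnb2 were thus far apart in Kupffer cells, with a ratio of 32.5, and closer in cardiac macrophages (0.434) and renal macrophages (0.585).

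The promoters of Cdk1 and Ccnb2 are shown because Kupffer cells were the highest library for Cdk1 and the lowest for its partner Ccnb2. Each is the 250 bases before the start (Cdk1 chr10:69352913-69353162 and Ccnb2 chr9:70421555-70421804, both minus strand, GRCm38.p6, RefSeq), with CHR, CCAAT and E2F letters in capitals.
Cdk1: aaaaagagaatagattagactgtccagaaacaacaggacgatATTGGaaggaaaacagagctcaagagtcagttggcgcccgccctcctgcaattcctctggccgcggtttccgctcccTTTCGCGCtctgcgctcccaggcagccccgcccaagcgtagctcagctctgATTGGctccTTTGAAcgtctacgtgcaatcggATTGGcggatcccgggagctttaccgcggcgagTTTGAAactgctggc
Ccnb2: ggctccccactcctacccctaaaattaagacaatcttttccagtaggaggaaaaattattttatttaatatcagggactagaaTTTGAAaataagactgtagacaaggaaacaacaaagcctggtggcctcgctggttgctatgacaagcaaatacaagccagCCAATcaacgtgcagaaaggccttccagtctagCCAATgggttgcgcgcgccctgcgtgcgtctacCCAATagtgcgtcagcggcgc
The CHR motif, an element known from genes of late cell cycle, was searched as TTTGAA and the CCAAT box as CCAAT, both on either strand. Both windows held CHR and CCAAT letters, and the Cdk1 window also 1 E2F form. CCAAT letters stood in the promoters of 14 of the 15 mitotic members with a RefSeq promoter, against 37.5% of all genes with one, and CHR letters in 7 of the 15, against 18.3%. Both together stood in 7 of the 15 and in 6.45% of all genes. The licensing genes held CHR letters in 1 of 7, Mcm2, but CCAAT letters in 5 of 7, and the DNA synthesis genes held CCAAT letters in 3 of 4. Over all 36 members with a RefSeq promoter, CCAAT letters stood in 26, so they were not particular to the mitotic members.

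Several mitotic kinases were near or under detection. Aurka, a kinase of the spindle poles, had 25 reads in cardiac macrophages, 0 in Kupffer cells and 103 in renal macrophages (0.88, 0 and 3.37 RPKM), where 3 reads in Kupffer cells would be 0.0912 RPKM. It was at least 29.5-fold higher in renal macrophages than in Kupffer cells. Bub1, a kinase of the spindle checkpoint, had 176 reads in cardiac macrophages, 0 in Kupffer cells and 36 in renal macrophages (2.82, 0 and 0.537 RPKM). Bub1 was at least 54.7-fold higher in cardiac macrophages than in Kupffer cells. Its partner in the checkpoint, Bub1b, stood at 2.98, 4.64 and 7.45 RPKM, 2.5-fold higher in renal than in cardiac macrophages (2.08 to 3.02), and so had reads in the library where Bub1 had none. Aurkb, the kinase of the chromosome passenger complex, stood at 1.66, 2.6 and 2.3 RPKM. Plk1, a kinase of mitotic entry, had 16 reads in renal macrophages and 0 in both others and did not pass the filter.

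A gene of this level without any read in 1 library was not rare. Of the 2303 coding genes whose highest level lay from 2 to 5 RPKM, 19.8% had 0 reads in at least 1 library, and so had 3 of the 8 members in this range (Ccne1, Aurka and Bub1). Of the 1838 genes from 5 to 10 RPKM the share was 8%, and it was 0 of 11 members. The part of low RNA input and amplification in these zeros was not tested.

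Genes of the spindle, the chromosomes and the exit from mitosis were also mixed. Mki67, which encodes the proliferation marker Ki-67, was highest in cardiac macrophages, at 12.3 RPKM (1792 reads) against 6.42 in Kupffer cells (1081 reads) and 3.94 in renal macrophages (616 reads). The heart value was 3.13-fold above renal macrophages (2.85 to 3.43) and 1.92-fold above Kupffer cells (1.78 to 2.07). Among the 11483 genes tested, Mki67 stood at percentile 70.3, 54.1 and 41.4 of the level in its library. Top2a, the topoisomerase that untangles replicated DNA, was highest in Kupffer cells, at 18.9, 27.4 and 9.45 RPKM, 2.9-fold above renal macrophages (2.67 to 3.15). Birc5, which encodes survivin of the chromosome passenger complex, stood at 2.92, 13.2 and 2.51 RPKM and was 5.26-fold higher in Kupffer cells than in renal macrophages (4.37 to 6.38). Survivin and its partner Aurkb therefore differed by unequal amounts.

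Cenpa, the histone variant of centromeres, stood at 11.4, 3.48 and 4.95 RPKM in cardiac, Kupffer and renal cells, with cardiac macrophages 3.28-fold above Kupffer cells (2.57 to 4.22). Tpx2, which activates the Aurora A kinase on the spindle, stood at 5.09, 1.69 and 1.01 RPKM, with cardiac macrophages 5.06-fold above renal macrophages (3.88 to 6.67). Both were at least 2-fold higher in cardiac macrophages than in both other libraries on log2(RPKM + 1), as were Bub1, Cdkn1a and Rb1, 5 members in all (10.9%, against 5.81% of all genes tested). The motor Kif11 stood at 2.64, 0.909 and 1.93 RPKM and the motor Kif20a at 6.94, 7.64 and 6.99, and 29.3% of the exon bases of Kif20a lie in exons of another gene. Cenpe, a kinetochore motor, stood at 2.57, 3.74 and 5.19 RPKM. Cdc20 and Ube2c, which drive the destruction of cyclin B, had at most 27 reads, with Ube2c at 0 in Kupffer cells and Cdc20 at 0 in renal macrophages. Ube2c was at least 7.35-fold higher in renal macrophages (27 reads) than in Kupffer cells, and 22.8% of its exon bases lie in exons of another gene.

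Set against each other by library, licensing and mitosis gave different pictures. The summed level of the 19 mitotic members was 91.5 RPKM in cardiac macrophages, 112 in Kupffer cells and 73.3 in renal macrophages, a narrow range beside the licensing sums. Licensing over mitosis came to 0.542 in cardiac macrophages, 2.75 in Kupffer cells and 1.65 in renal macrophages. These ratios do not depend on the scaling of a library, but the sums and ratios do depend on the transcript read for a gene. Within the mitotic members, the sum of cyclins and kinases was 27.4, 46.8 and 35.5 RPKM, and that of spindle, chromosome and exit genes 64.1, 65.4 and 37.9. For the latter the order of heart and liver turned with both other scalings. With the transcript of highest mean level, the sums of spindle, chromosome and exit genes were 73.4, 99.6 and 44.8 RPKM. In the order used above, median differences were -0.43, -0.31 and 0.55 for mitotic cyclins and kinases and 0.36, 0.37 and -0.27 for spindle, chromosome and exit genes.

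Further genes of the pathway were read from lists outside the 46. Of 39 other replication factors, such as origin proteins, polymerases and nucleotide enzymes, 38 passed the filter. Of the 39, 5 were at least 4-fold lower in cardiac macrophages than in Kupffer cells and 0 higher (7.13% and 5.33% of all genes tested), and 4 were lower in renal macrophages than in Kupffer cells and 0 higher (5.1% and 7.57%). Between heart and kidney 2 were lower in cardiac macrophages and 0 higher (5.1% and 2.39%). At 2-fold the first comparison gave 16 lower and 2 higher of 39 (24.9% and 17.9% of all genes tested). Their median for cardiac minus Kupffer cells was -0.86, between that of the licensing members and that of all genes tested, and the medians of the other comparisons were -0.24 for cardiac minus renal and -0.73 for renal minus Kupffer cells. Tk1, the thymidine kinase of S phase, led them, at 0.814 RPKM in cardiac macrophages (16 reads), 149.9 in Kupffer cells (3413 reads) and 5.77 in renal macrophages (122 reads). Rfc5, a subunit of the clamp loader, stood at 0.685, 15.1 and 6.14 RPKM, Uhrf1, which guides maintenance of DNA methylation, at 0.292, 7.91 and 3.53, and Gins2, of the replicative helicase, at 5.9, 51.1 and 11.4. Of the exon bases of Gins2, 67.3% lie in exons of another gene.

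Of 39 other mitotic genes 36 passed the filter, and 0 were 4-fold apart between heart and liver in either direction (5.33% of all genes tested were higher and 7.13% lower). Against renal macrophages 2 were at least 4-fold lower in cardiac macrophages and 0 higher (5.1% and 2.39% of all genes), and between kidney and liver 3 were higher and 1 lower in renal macrophages (7.57% and 5.1%). The 3 medians were -0.08, -0.01 and -0.14. Fbxo5, which encodes the inhibitor EMI1 of the anaphase-promoting complex, stood at 1.23, 0 and 8 RPKM in cardiac, Kupffer and renal cells. Cdca3, which takes part in the degradation of WEE1, stood at 3.65, 0.444 and 8.04 RPKM and Cdca8, of the chromosome passenger complex, at 1.5, 2.11 and 9.52. Racgap1, which acts in cytokinesis, stood at 2.25, 7.04 and 0.739 RPKM. As among the members, no library was the highest for all of these mitotic genes.

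Regulators of the cycle outside the 46 were 4-fold apart in small numbers. The shares of all genes tested to set beside the counts of this and the following lists are 5.33% higher and 7.13% lower for heart against liver, 2.39% and 5.1% for heart against kidney, and 7.57% and 5.1% for kidney against liver. Of 17 other E2F and DREAM genes, which repress or activate cell cycle promoters, 1 was at least 4-fold higher and 1 lower in cardiac macrophages than in Kupffer cells. Against renal macrophages 1 was higher and 1 lower in cardiac macrophages, and 2 were higher and 1 lower in renal macrophages than in Kupffer cells, with medians of 0, -0.10 and 0.24. E2f4, a repressing E2F, stood at 2.09, 13.2 and 1.17 RPKM, Lin54, the DREAM subunit that binds CHR elements, at 11.8, 1.3 and 2.01, Lin37 at 3.67, 2.58 and 29.4 and Lin9 at 2.46, 0.019 and 5.87. Of 17 other CDK regulators, 1 was at least 4-fold higher and 2 lower in cardiac macrophages than in Kupffer cells, 0 differed between heart and kidney, and 1 was lower in renal macrophages than in Kupffer cells, with medians of -0.21, 0.03 and -0.09. Cdkn2d, the inhibitor p19 of CDK4 and CDK6, stood at 22.4, 1.7 and 5.79 RPKM, in the order of libraries of Cdkn1a and Cdkn2c. Cdc25c, a phosphatase that activates CDK1, stood at 0, 4.68 and 0.1 RPKM, and the CDK subunits Cks1b and Cks2 at 9.38, 43.1 and 14.4 and at 82, 56.3 and 24.6.

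Of 15 genes of the p53 response and checkpoints, 1 was at least 4-fold higher in cardiac macrophages than in Kupffer cells, 1 lower in cardiac macrophages than in renal macrophages, and 1 higher in renal macrophages than in Kupffer cells (5.33%, 5.1% and 7.57% of all genes tested), with medians of 0, 0.05 and 0.79. Trp53, which encodes p53, stood at 16.2, 47.9 and 88.4 RPKM in cardiac, Kupffer and renal cells, while Mdm2, its inhibitor and target, stood at 28.8, 12.6 and 6.92. Trp53 was thus lowest in the library where Cdkn1a and Mdm2 were highest. Gadd45b, a stress gene, stood at 20.5, 1.19 and 12.4 RPKM and Plk2, a kinase induced by stress, at 96.7, 24.9 and 93.6.

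Among 8 regulators tied to macrophage proliferation, Myc differed most, at 7.28 RPKM in cardiac macrophages, 1.2 in Kupffer cells and 33.4 in renal macrophages. It was the 1 gene of the list at least 4-fold lower in cardiac than in renal and higher in renal than in Kupffer cells, and the list had medians of 0.39, 0.18 and 0.40. Maf, a factor known to restrain macrophage division, stood at 114.5, 130.9 and 87.4 RPKM. Klf4, the 1 gene of the list at least 4-fold higher in cardiac macrophages than in Kupffer cells, stood at 61.1, 12.4 and 35.95 RPKM, Klf2 at 46, 21.1 and 54.6, and Bhlhe40 at 47, 38.1 and 12.6. Csf1r, the receptor for the growth factor of macrophages, stood at 215, 196 and 312 RPKM, and Gata6 had 0 reads in all 3 libraries. Myc was therefore lowest in the library with the highest licensing genes.

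**Figure D5:**
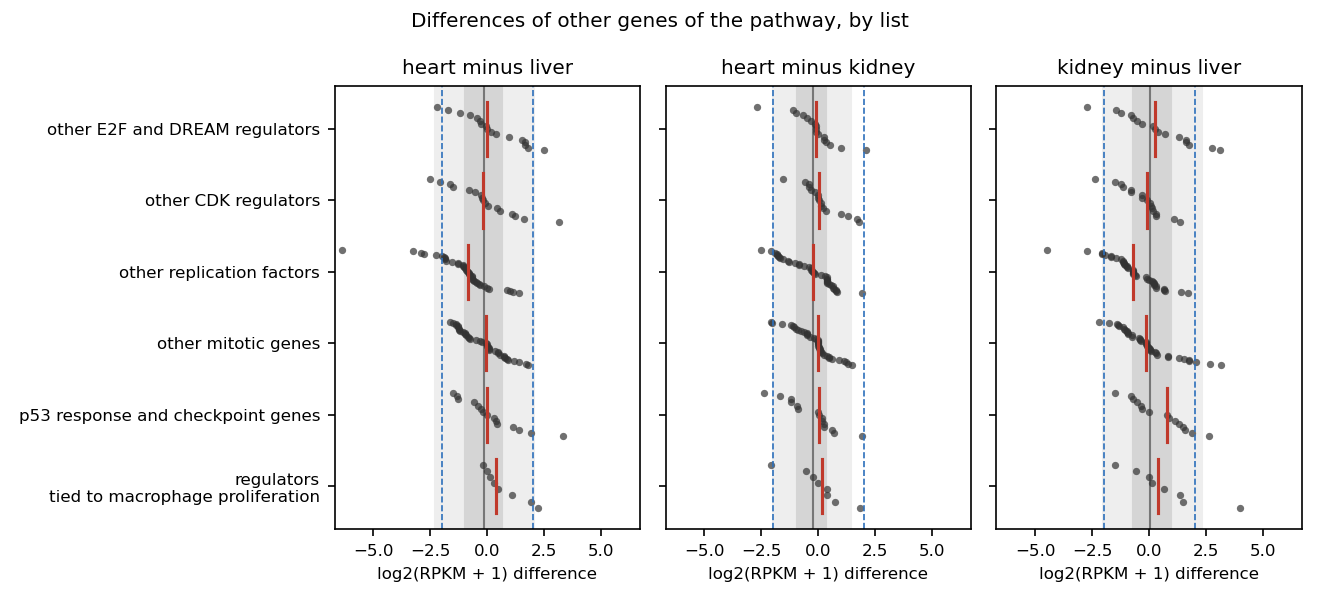
Difference of log2(RPKM + 1) for each gene of 6 further lists (points) between the 3 pairs of libraries, with list medians as red bars, the middle 50% and 90% of all genes tested as grey bands and 2 log2 units as dashed lines. Other replication factors have a median of -0.86 for cardiac minus Kupffer cells, and Tk1 lies at -6.38.

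Markers of other cells were also unequal between the libraries. The summed level of 8 B and plasma cell markers was 36.2 RPKM in cardiac macrophages, 312 in Kupffer cells and 168 in renal macrophages. In Kupffer cells 7 of the 8 reached 1 RPKM and Pax5 had 0 reads, while in renal macrophages Cd79b, at 168 RPKM, gave nearly the whole sum. For 10 T and NK cell markers the sums were 16.2, 62.5 and 17 RPKM. Klrb1c, Lck and Ncr1 were at 0 in Kupffer cells, and Cd3d, Cd3e and Cd3g at 0 in both others. In renal macrophages Cd4, at 15.46 RPKM, gave most of the sum, and 7 of the 10 had 0 reads. For 8 erythroid markers the sums were 37, 259 and 128 RPKM, with Klf1 at 0 in all 3 libraries. Hepatocyte markers summed to 0.535, 223 and 0.891 RPKM, endothelial markers to 10.2, 144 and 12.4 and renal tubule markers to 0.59, 0.108 and 288.5. Among the endothelial markers, Emcn was lowest in Kupffer cells, at 5.257, 0.908 and 3.955 RPKM, and Tek was highest in renal macrophages (0.454). Fibroblast and mural cell markers summed to 151, 12.3 and 0.775 RPKM and dendritic cell markers to 286, 13.7 and 35.6. Of these sums in cardiac macrophages, Dcn gave 125 and Cd209a 270.1 RPKM, while Rgs5 was highest in Kupffer cells (3.84), and Xcr1, Clec9a and Dpp4 in renal macrophages (3.11, 7.24 and 10.1). Flt3 had 1 read in all, and cardiomyocyte markers summed to 13.2, 0.041 and 4.43. Of 8 genes of neutrophils and their precursors, Mpo, Elane, Prtn3, Camp and Ngp had 0 reads in all 3 libraries. S100a8 stood at 4.11 RPKM in cardiac macrophages (23 reads) and at 0 in both others, and Ly6g and Ltf had at most 6 reads in a library. The part of such cells in the levels of the cell cycle genes was not tested.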

How the data were processed

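RNA sequencing of 3 libraries of sorted mouse macrophages was used as deposited. The authors deposited RPKM for 34711 RefSeq transcripts of the mm10 genome. Per the file headers, HOMER's analyzeRepeats.pl counted reads over exons on both strands and scaled each library to 1000000, with the option -pc 3, which limits the reads counted at a position. CASAVA and STAR are named in the submitters' processing notes, with versions not given in these sources. Counting on both strands cannot separate opposite genes, so overlap of exons between genes was measured with GENCODE M21.

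Low values were multiples of a step. Of those up to 500 reads on transcripts under 4000 bases, 99.97%, 99.98% and 99.99% were whole reads to within 0.1 for cardiac, Kupffer and renal cells (11240, 8727 and 10447 values), and reads and depth were recovered from them. Reads over the 1 transcript kept for each gene, the longest coding one or else the longest noncoding one, numbered 8752721, 10374200 and 9485962. The recovery and the calls were tested on simulated data.

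Folds are ratios of RPKM without a pseudocount. For their 95% intervals, the split of a gene's reads between libraries was treated as a binomial share (exact, Clopper-Pearson). Where a library had 0 reads, the lower limit of this interval is given as the bound of the fold. With 1 library per tissue there are no p-values. Members and lists were chosen with earlier results of these data known. Members 1 log2 unit or more apart between any pair of libraries, or highest of their role, were given with a fold and its interval or bound, others by level, and from each further list the 4 genes farthest apart, or every one of the 8 macrophage regulators except 1 that is not reported here. Other pseudocounts, filters, scalings, thresholds and transcripts were tried. RefSeq promoters (GRCm38.p6) matched 36 members. Aurkb, Ccna2, Ccnd1, Ccnd2, Ccne2, Gmnn, Kif20a, Mcm4, Rb1 and Tpx2 had no entry. Python 3.11.15, scipy 1.17.1 and pandas 2.3.3 were used.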

Additional observations from a re-analysis of the deposited data

How the results depend on the processing

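Counts of members at least 4-fold apart depended on the pseudocount and the threshold, which decide how far genes of low level can differ. With a pseudocount of 0.1 in place of 1, heart against liver gave 7 higher and 12 lower (13.8% and 14.7% of all genes tested), heart against kidney 4 and 4 (6.54% and 13.9%), and kidney against liver 8 and 5 (17.6% and 10%). With a pseudocount of 5 the counts were 2 higher and 4 lower for heart against liver (1.69% and 2.36% of all genes tested). They were 0 and 0 for heart against kidney (0.941% and 0.914%), and 1 and 0 for kidney against liver (1.77% and 1.64%). The medians of the members were then -0.26 for cardiac minus Kupffer cells and -0.12 for cardiac minus renal cells. With a threshold of 2-fold the counts were 8 higher and 16 lower (17.9% and 24.9% of all genes tested), 7 and 8 (10.5% and 22.9%), and 6 and 13 (24.2% and 17.7%).

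With TPM scaling, heart against liver gave 7 higher and 9 lower (11.6% and 9.55% of all genes tested). Heart against kidney gave 1 and 2 (5.17% and 9.76%), and kidney against liver 5 and 4 (15% and 7.03%). Median ratio scaling gave 1 higher and 1 lower for heart against kidney (3% and 3.63%). Its medians of the members were -0.26 for cardiac minus Kupffer cells and -0.12 for cardiac minus renal cells. Without genes sharing 5% or more of exon bases, 1 of 35 members was higher and 7 were lower in cardiac macrophages than in Kupffer cells (5.45% and 7.05%). Under the other pseudocounts, scalings and choice of transcript, none of the differences of at least 1 log2 unit among the 33 members with such a difference changed its sign. Among their smaller differences, that of Ccnd1 (renal minus Kupffer cells) or Ccnb2 (cardiac minus renal cells) changed sign with a scaling. With the pseudocount of 5, the differences of E2f1 (-1.65), Mcm6 (-1.74), Cdc6 (-1.16), Cdk1 (-1.91), Rb1 (1.58) and Ccnb2 (1.14) for cardiac minus Kupffer cells fell under 2 log2 units, as did those of Gmnn (-1.97), Cdk1 (-1.64), Birc5 (-1.28), Ccnb2 (1.25) and Aurka (0.74) for renal minus Kupffer cells. Under median ratio scaling that of Mcm5 for cardiac minus renal cells was -1.90.

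Summed levels in heart, liver and kidney moved with scaling. In TPM they were 419, 274 and 517 for G1 cyclins and kinases, 114, 104.9 and 108 for G1/S genes, 648, 97.1 and 219.6 for CDK inhibitors, 181, 990.5 and 422 for licensing, 519, 664 and 362.5 for DNA synthesis, 99.96, 150.3 and 124 for mitotic cyclins and kinases, and 233, 209.7 and 132 for spindle genes. Scaled by median ratios they were 128, 78.8 and 134.5, then 34.8, 30.1 and 28.2, then 198, 27.9 and 57.2, then 55.1, 285 and 109.8, then 158, 191 and 94.4, then 30.5, 43.2 and 32.2, and 71.2, 60.3 and 34.4 in the same order. Without genes sharing exon bases they were 13.4, 12.4 and 27.9 for G1 genes, 4.39, 21.2 and 16.4 for G1/S genes, 15.1, 17.3 and 16.4 for CDK inhibitors, 39.6, 249 and 103 for licensing, 23.5, 40.98 and 30.8 for mitotic cyclins and kinases, and 56.2, 57.7 and 28.97 for spindle genes. The order of the CDK inhibitors changed there because Cdkn1a was left out. With the transcript of highest mean level, CDK inhibitors summed to 189, 33.3 and 68.5, licensing to 319 in Kupffer cells, and spindle genes to 73.4, 99.6 and 44.8.

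No paired analysis was possible because each tissue has 1 library. Depth limits genes under about 1 RPKM, such as Plk1, Cdc20 and E2f2, most.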
